A study of Mus musculus with 9 samples.

Results

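The Reg family genes *Reg3a*, *Reg3b*, *Reg3g* and *Reg4* were followed in colon RNA of 9 C57BL/6J mice, 3 per group, named control, DSS and DSS + EA. The members were chosen by name as the Reg genes with an antimicrobial or lectin role in the gut, and they are 4 of the 27719 genes and loci in the table. The table also holds *Reg1*, *Reg2* and *Reg3d*, which are given beside them. Control mice drank distilled water. The DSS group drank 2.5% dextran sodium sulfate (DSS), which injures the colon epithelium, for 7 days. The DSS + EA group drank the same DSS and also received electroacupuncture (EA), a weak current passed through needles at the ST36 point of both hind limbs, starting after 5 days and given daily for 30 minutes over 5 days at 2 Hz and 0.2 mA. Per the methods, mice of the control and DSS groups were held for the same 30 minutes without EA, and no group received needles without current or EA without DSS. The age and sex of the mice are not given in the sources used here.

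Full-length cDNA was read on an Oxford Nanopore instrument, and the deposited values are whole reads counted per gene, between 2627695 and 4235576 per mouse. Values below are CPM, which puts the counts of each mouse on the same total after TMM normalization, and 3 counts, the floor used for lower bounds, were worth between 0.652 and 1.15 CPM on that scale. Each mouse gave 1 library, so the spread within a group is that between mice, and PCR copies were not told apart from separate molecules, so that intervals on shares cover counting error only. Epithelial genes were read in all 9 libraries. The summed level of 15 markers of epithelium in general was 6832 to 8281 CPM in control mice, 1324 to 5351 in DSS mice and 5899 to 7465 in DSS + EA mice. DSS + EA mice 2 and 3 stood apart from the other libraries in transcripts of pancreatic acinar cells, which summed to 52784 and 23548 CPM without *Zg16*, a gene that colon goblet cells also make, and so exceeded the epithelial sums of 5899 and 6973 CPM in the same mice. Whether pancreas was sampled with the colon was not tested, and values without these mice are given where they bear on a result. A gene "passed the test" where its adjusted p was under 0.05 in edgeR's quasi-likelihood fit of the 12566 genes with enough counts, and all 4 members were among those genes.

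Reg proteins are small secreted proteins built on a C-type lectin fold. *Reg3b* and *Reg3g* are made by gut epithelial cells, where they are induced by bacteria and by IL-22 acting through its receptor and STAT3, and Reg3g kills Gram-positive bacteria by binding their peptidoglycan. *Reg4* is known in the colon as a marker of deep crypt secretory cells, goblet-like cells at the crypt base, and is also made by enteroendocrine cells. *Reg1*, *Reg2*, *Reg3a* and *Reg3d* are best known from the pancreas, whose acinar cells secrete several Reg proteins together with digestive enzymes.

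In GENCODE M21, on the GRCm38 (mm10) build named in the labels, *Reg3b* (ENSMUSG00000071356) lies at chr6:78370657-78373466 on the plus strand and *Reg3a* (ENSMUSG00000079516) at chr6:78380709-78383827 on the plus strand. *Reg3g* (ENSMUSG00000030017) lies at chr6:78466269-78468872 on the minus strand. These and *Reg1*, *Reg2* and *Reg3d* form a cluster of 6 genes within 98216 bases of chromosome 6, with 0 other annotated genes between them. *Reg4* (ENSMUSG00000027876) stands alone at chr3:98222156-98236748 on the plus strand. No annotated gene overlaps any of the 4 members on either strand. In aligned coding sequence *Reg3b* and *Reg3g* shared 76.0% of bases, with a longest identical run of 35 bases, *Reg3a* shared 73.6% with *Reg3b* and 73.2% with *Reg3g*, and *Reg4* shared between 49.8% and 52.4% with the others. How the counting treated reads that match more than 1 of these genes is not given in the sources used here.

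The 150 bases before the RefSeq start site (GRCm38.p6) are shown for the 4 members because *Reg3b* and *Reg3g* moved together in these mice while *Reg3a* and *Reg4* each followed another course. Capitals mark matches on either strand to a STAT motif (TTCNNNGAA), a TATA box (TATAAA) or an E-box motif (CAGNTG), and no matches overlapped. The windows are chr6:78370735-78370884 plus strand for *Reg3b*, chr6:78468875-78469024 minus strand for *Reg3g*, chr6:78380559-78380708 plus strand for *Reg3a* and chr3:98222006-98222155 plus strand for *Reg4*. The *Reg3g*, *Reg3a* and *Reg4* windows lie upstream of the annotated genes. The *Reg3b* window lies before the RefSeq start but inside the GENCODE gene, in an intron of a transcript with an earlier start, except that its last 24 bases fall in an exon.
Reg3b: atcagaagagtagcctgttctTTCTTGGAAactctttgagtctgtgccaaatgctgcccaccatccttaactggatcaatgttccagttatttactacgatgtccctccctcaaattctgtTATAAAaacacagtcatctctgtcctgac
Reg3g: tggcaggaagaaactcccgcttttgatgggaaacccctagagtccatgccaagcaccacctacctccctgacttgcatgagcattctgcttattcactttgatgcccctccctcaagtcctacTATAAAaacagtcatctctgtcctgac
Reg3a: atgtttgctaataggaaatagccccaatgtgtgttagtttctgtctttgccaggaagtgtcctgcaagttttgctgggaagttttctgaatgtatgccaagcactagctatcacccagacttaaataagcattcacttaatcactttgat
Reg4: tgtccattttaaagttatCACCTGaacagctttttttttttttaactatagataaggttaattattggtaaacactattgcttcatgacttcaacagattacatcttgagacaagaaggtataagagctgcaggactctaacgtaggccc

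The *Reg3b* and *Reg3g* windows were 68.4% identical when aligned and ended in the same run of 20 bases, and each held a TATAAA in its last 30 bases. The other pairs of members were between 37.5% and 49.4% identical. The STAT motif was matched in the *Reg3b* window, at 129 to 121 bases before the start, and not in the other members' windows, and 4.10% of 32475 mouse promoter windows of that length held it. TATAAA was held by 7.55% of those windows. The E-box was matched in the *Reg4* window as CACCTG, 132 to 127 bases before the start, and in 30.1% of all windows. A match is a description of letters, and binding was not measured.

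*Reg3b* and *Reg3g*, the bactericidal lectins of the epithelium, reached very high levels in all 3 DSS + EA mice and in 1 of 3 DSS mice. *Reg3b* stood at 143, 33.2 and 1125 CPM in control mice 1 to 3. In DSS mice 1 to 3 it stood at 13442, 92.6 and 25.9 CPM. In DSS + EA mice 1 to 3 it stood at 23040, 10405 and 12860 CPM. The DSS group held both a mouse above every control and a mouse below every control, whereas all DSS + EA mice lay above all control mice. *Reg3b* took 1.31% of all counts in DSS mouse 1 (Wilson 95% confidence interval 1.30 to 1.32) and 2.32% in DSS + EA mouse 1 (2.31 to 2.34), where it ranked 1 among all genes, and it ranked 3 in the other DSS + EA mice. In DSS mouse 3 it took 0.00257% and ranked 4063.

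*Reg3g* followed *Reg3b* mouse by mouse at a lower level. Its CPM was 60.0, 19.3 and 289 in control mice 1 to 3, 4109, 24.3 and 6.87 in DSS mice 1 to 3, and 5875, 2079 and 3907 in DSS + EA mice 1 to 3. Per kilobase of the longest coding transcript, *Reg3b* exceeded *Reg3g* in each of the 9 mice, with 13289 to 29425 against 2696 to 7620 CPM per kb in the DSS + EA group. The log2 CPM of *Reg3b* and *Reg3g* had a Pearson r of 0.995 over the 9 libraries, which are in 3 groups and share their depth, and this is given as a description.

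**Figure D1:**
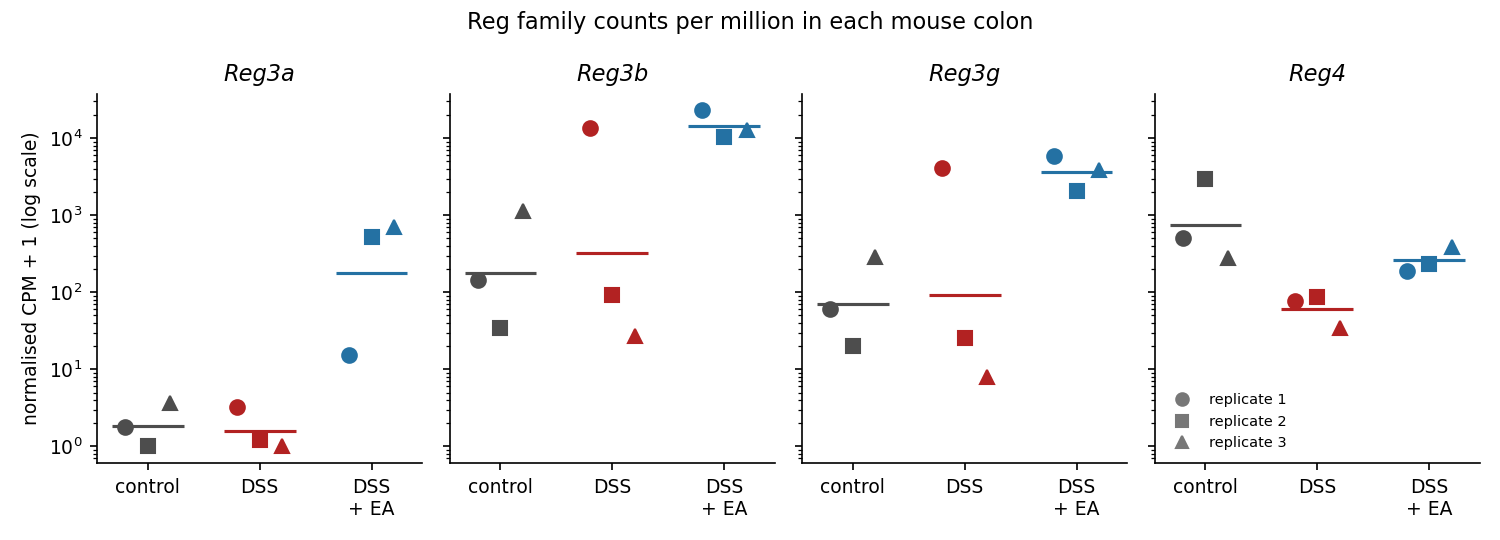
Normalised CPM + 1 on a log axis for each of the 4 members, with 1 symbol per mouse (circle, square and triangle for replicates 1, 2 and 3) and a bar at the mean of the log values of each group. DSS mouse 1 sits among the DSS + EA mice for *Reg3b* and *Reg3g* and the other DSS mice sit among or below the control mice, while *Reg4* is lower in every DSS mouse than in every control mouse.

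**Figure D2:**
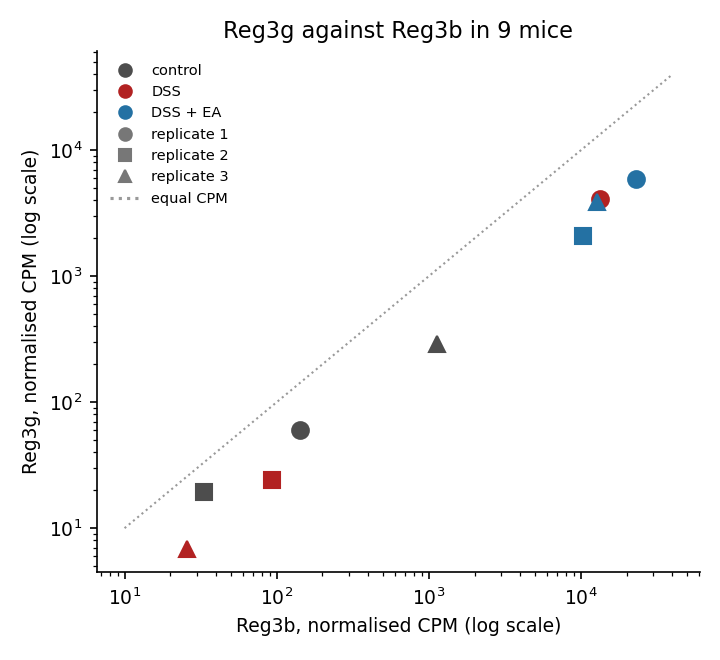
*Reg3g* against *Reg3b* in CPM on log axes in the 9 mice, coloured by group, with symbols for replicates and a dotted line of equal CPM. The points run parallel to the line and below it, from 25.9 CPM of *Reg3b* in DSS mouse 3 to 23040 in DSS + EA mouse 1.

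Reads of *Reg3g* for each read of *Reg3b* numbered 0.421, 0.580 and 0.257 in the control mice, 0.306, 0.263 and 0.265 in the DSS mice and 0.255, 0.200 and 0.304 in the DSS + EA mice. The ratio thus varied far less than either gene, and control mice 1 and 2 had the highest values. On the log2 scale it was -1.33 ± 0.59 for control, -1.84 ± 0.11 for DSS and -2.00 ± 0.30 for DSS + EA mice (SD, n = 3). In exact two-sided permutation tests, where 3 mice against 3 allow no p below 0.1, these differences gave p = 0.4 for DSS against control, 0.4 for DSS + EA against DSS and 0.2 for DSS + EA against control, each 0.4 after adjustment over 6 ratio tests.

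Compared with the control group, the difference of the DSS group was not past the test for *Reg3b*, with a log2 fold change of 3.38 ± 1.91 (SE, 95% interval -0.87 to 7.63, adjusted p = 0.181), nor for *Reg3g*, with 3.49 ± 1.85 (-0.62 to 7.61, adjusted p = 0.156). These positive values rest on DSS mouse 1. Without it, the values were -2.89 for *Reg3b* (adjusted p = 0.0864) and -2.97 for *Reg3g* (adjusted p = 0.0453), so the direction turned. Among all genes tested, 21.5% passed the test as higher in the DSS group, 19.5% as lower, and 10.2% were DEGs by the thresholds of the study's methods (P under 0.01 and an absolute log2 fold change over 2.5). The 3 DSS mice lay all above the 3 control mice for 26.2% of genes and all below for 25.9%, and neither *Reg3b* nor *Reg3g* was among these.

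The spread inside the DSS group was among the widest of all genes. The SD of log2 CPM over the DSS mice was 4.83 for *Reg3g* and 4.75 for *Reg3b*, which ranked 2 and 3 of 12566 genes, against a median of 0.44. The gene ranked 1 is a locus known only as ONT.14140, named here after its values were seen. The highest DSS mouse had 599 times the *Reg3g* and 519 times the *Reg3b* of the lowest. In the DSS + EA group the highest mouse had 2.83 times the *Reg3g* and 2.21 times the *Reg3b* of the lowest.

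DSS mouse 1 also differed from the other DSS mice in its cell type markers. Its summed epithelial markers reached 5351 CPM, against 2944 and 1324 in DSS mice 2 and 3. Its goblet and deep crypt markers summed to 9118 CPM, against 3585 and 1182. Its 16 neutrophil genes summed to 4657 CPM, against 25636 and 28555 in the other DSS mice, 24.1 to 161 in control mice and 1235 to 1623 in DSS + EA mice. Of these genes 13 were tested and 13 passed as higher in the DSS group, where 21.5% of all genes did. However, 10 of the 13 had at most 5 counts in each control mouse and so entered the fit through the mice in which they were high. The part of these differences in the *Reg3b* and *Reg3g* values was not tested. In bulk tissue, fewer cells of a type and less RNA per cell cannot be told apart.

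Scaled to the counts of the 15 epithelial markers in place of all genes, *Reg3b* was higher in the DSS group by a log2 fold change of 3.99 (adjusted p = 0.00812) and *Reg3g* by 4.08 (adjusted p = 0.00586). That scaling moved the median of all genes to 1.62, so that relative to the median gene the differences were smaller than in the whole-tissue fit.

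Compared with the DSS group, the DSS + EA group had a log2 fold change of 1.77 ± 1.79 (SE) for *Reg3b* (95% interval -2.21 to 5.76, adjusted p = 0.460) and of 1.52 ± 1.71 for *Reg3g* (-2.28 to 5.32, adjusted p = 0.509). The groups overlapped, because DSS mouse 1 lay above 2 of the DSS + EA mice in both genes. Without DSS mouse 1 the values were 8.05 (adjusted p = 0.00396) and 7.99 (adjusted p = 0.00166). In this comparison 17.2% of all genes passed the test as higher in the DSS + EA group, 18.3% as lower, and 6.41% were DEGs. The DSS + EA mice lay all above the DSS mice for 24.2% of genes and all below for 23.3%.

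Compared with the control group, all 3 DSS + EA mice had more *Reg3b* and *Reg3g* than all 3 control mice, as was the case for 18.0% of all genes, while 14.2% lay all below. The log2 fold change was 5.15 ± 2.07 (SE) for *Reg3b* (95% interval 0.54 to 9.77, unadjusted P = 0.0322) and 5.01 ± 1.98 for *Reg3g* (0.60 to 9.43, unadjusted P = 0.0300), and neither passed after adjustment over all genes (adjusted p = 0.239 and 0.232). Without DSS mouse 1, whose spread enters the shared estimate, the same differences had adjusted p-values of 0.0366 and 0.0189, and in a fit of these 2 groups only they had 0.0292 and 0.0143. Calls were rare in this comparison, with 3.00% of genes passing as higher, 0.637% as lower, and 2.08% DEGs. Without DSS + EA mice 2 and 3, an alternative chosen after seeing the data, the differences were 5.73 for *Reg3b* and 5.58 for *Reg3g*; the DSS + EA group was then 1 mouse, assumed to vary like the other groups.

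**Figure D3:**
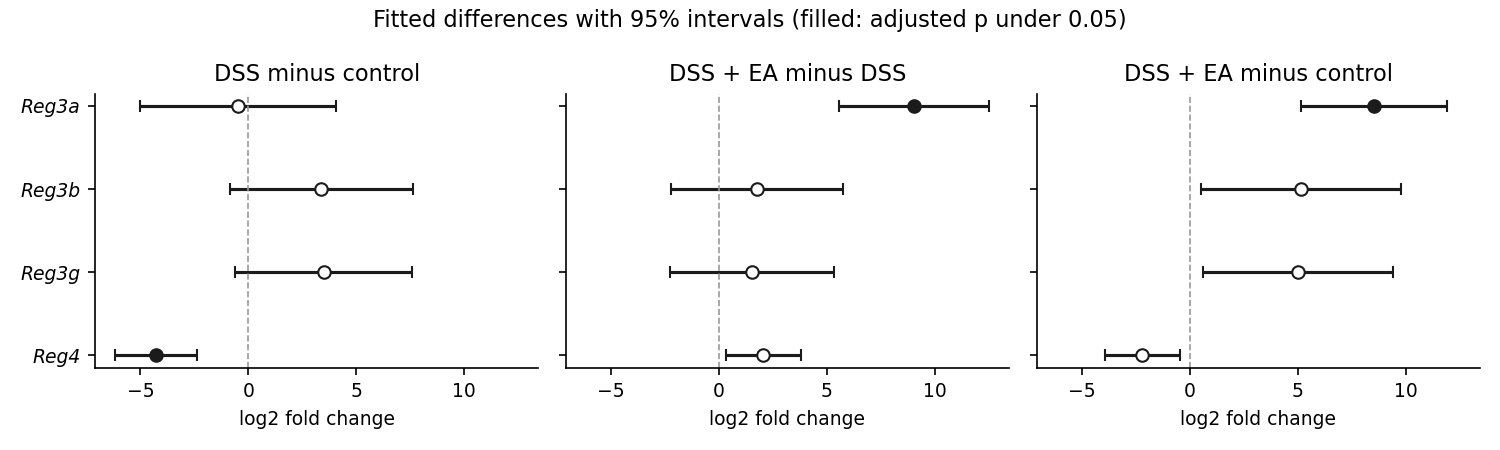
Log2 fold changes of the 4 members in the 3 comparisons, with 95% intervals from edgeR's quasi-likelihood fit of 9 libraries and filled points where the adjusted p was under 0.05. Filled points are *Reg4* in DSS minus control and *Reg3a* in both comparisons of the DSS + EA group. *Reg3a* entered the fit through that group, so its filled points are a description.

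**Figure D4:**
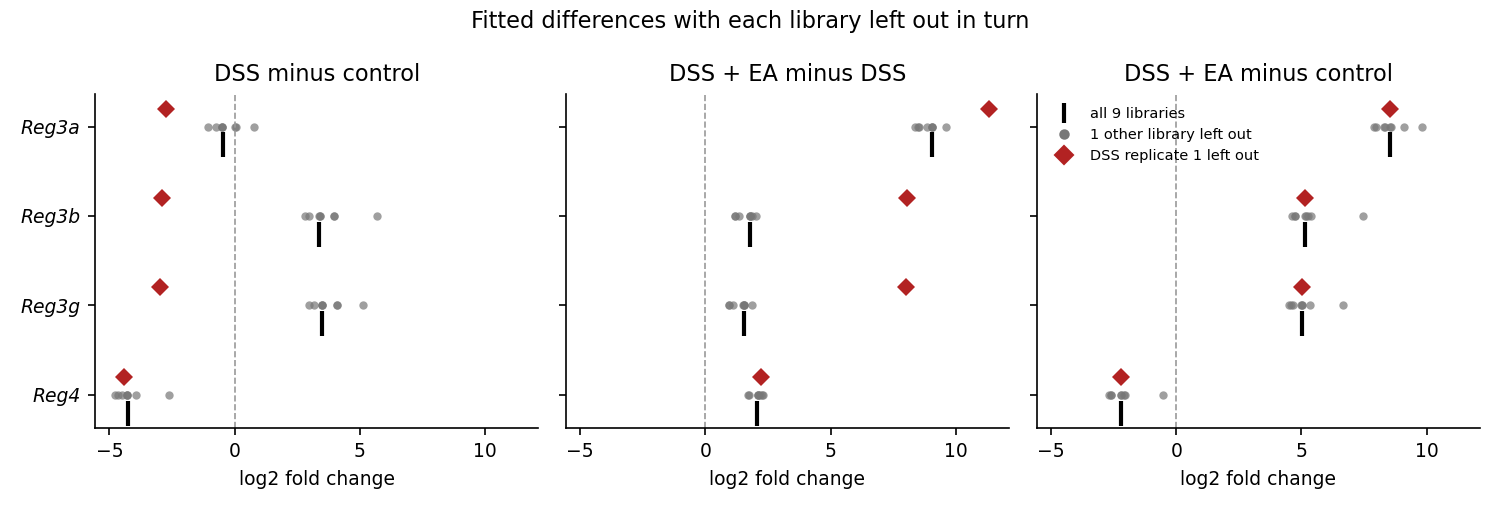
Log2 fold changes of the 4 members with all 9 libraries (black bars) and with each library left out in turn (grey circles, and red diamonds where DSS mouse 1 was left out). In DSS minus control the diamonds of *Reg3b* and *Reg3g* fall at -2.89 and -2.97, on the other side of 0 from the bars.

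*Reg4*, the deep crypt secretory cell member, fell in the DSS group. Its CPM was 506.5, 2982 and 274.0 in control mice 1 to 3. In DSS mice 1 to 3 it was 76.9, 84.7 and 33.7 CPM, and in DSS + EA mice 1 to 3 it was 191, 233 and 392 CPM. Each DSS mouse lay below every control mouse and every DSS + EA mouse, and the DSS + EA mice overlapped the control mice. Over all genes, the DSS mice lay all below the control mice for 25.9%, and the DSS + EA mice all above the DSS mice for 24.2%. The fall in the DSS group was -4.27 ± 0.85 in log2 fold change (SE, 95% interval -6.17 to -2.36, adjusted p = 0.00363), a DEG and 1 of the 19.5% of genes that passed as lower. It passed with each library left out in turn, with values between -4.77 and -2.61, and stood at -2.98 (adjusted p = 0.00165) when scaled to epithelial markers.

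The DSS + EA group had more *Reg4* than the DSS group in every mouse, as was the case for 24.2% of all genes. The log2 fold change was 2.06 ± 0.78 (SE, 95% interval 0.32 to 3.80) and was not past the test (adjusted p = 0.0632). Scaled to epithelial markers it was 0.82 (adjusted p = 0.283), with the median of all genes at -1.50. Without control mouse 2 the adjusted p was 0.00852 and without control mouse 3 it was 0.0325, and the highest control mouse had 10.9 times the *Reg4* of the lowest. Against the control group the difference was -2.20 ± 0.78 (SE, 95% interval -3.94 to -0.47, adjusted p = 0.181), and it was -0.52 without control mouse 2.

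The share of *Reg4* in the counts of the 4 members varied widely between mice. Shares of 1 total are bound to trade off, so a low share of *Reg4* can come from high *Reg3b* alone. The log2 CPM of *Reg3b* and *Reg4* had r = -0.10 over the 9 libraries. *Reg4* gave 71.4%, 98.3% and 16.2% of the counts of the 4 members in control mice 1 to 3. It gave 0.436%, 42.0% and 50.7% in DSS mice 1 to 3 and 0.655%, 1.76% and 2.19% in DSS + EA mice 1 to 3. The log2 ratio of *Reg4* to *Reg3b* counts was 2.09 ± 4.26 for control, -2.40 ± 4.38 for DSS and -5.81 ± 0.98 for DSS + EA mice (SD, n = 3). Exact permutation tests gave p = 0.4, 0.4 and 0.1 for DSS against control, DSS + EA against DSS and DSS + EA against control, and each was 0.4 after adjustment over the 6 ratio tests. The ratio was lower in all DSS + EA mice than in all control mice. Per kilobase, *Reg4* led the family in control mice 1 and 2, with 496 and 2920 CPM per kb, whereas *Reg3b* led it in control mouse 3, in all DSS + EA mice and in all DSS mice. In DSS mouse 3 the lead was narrow, with 33.08 CPM per kb of *Reg3b* and 33.01 of *Reg4*.

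Genes of goblet and deep crypt secretory cells changed in the same direction as *Reg4*. Of the 18 tested, 18 passed as lower in the DSS group, where 19.5% of all genes did, with a median log2 fold change of -2.70 against 0.02 over all genes. In DSS + EA mice 11 of the 18 passed as higher than with DSS alone, where 17.2% of all genes did. Against control, 0 of 18 passed in the DSS + EA group. *Atoh1*, the transcription factor that commits crypt cells to the secretory lineage, had 147, 95 and 101 counts in control mice, 0, 2 and 0 in DSS mice and 99, 73 and 105 in DSS + EA mice. *Clca1*, a secreted goblet cell protein, fell by 6.36 on the log2 scale (SE 0.94, adjusted p = 0.000754). *Spink4*, a goblet cell peptide, fell by 3.13 (SE 0.67, adjusted p = 0.00507) and was higher by 2.27 with EA (SE 0.65, adjusted p = 0.0224). *Muc2*, the gel-forming mucin, fell by 3.29 (SE 0.80, adjusted p = 0.00950), and its difference between the DSS + EA and DSS groups was 1.92 (SE 0.76, adjusted p = 0.0738).

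The enteroendocrine genes, the other known source of *Reg4*, showed no common direction. Of 16 tested, 2 passed as higher and 3 as lower in the DSS group, with a median of -0.09. Over all genes tested, 21.5% passed as higher and 19.5% as lower. *Chga*, the granule protein of enteroendocrine cells, had a log2 fold change of -0.28 ± 0.42 (SE, adjusted p = 0.619). Among general epithelial markers, 7 of 15 passed as lower in the DSS group and 0 as higher, with a median of -1.09. *Epcam* (-1.05 ± 0.69, adjusted p = 0.249) and *Krt8* (-1.08 ± 0.46, adjusted p = 0.0829) did not pass, and *Krt20*, a keratin of mature surface cells, fell by 1.66 (SE 0.60, adjusted p = 0.0499). The summed epithelial markers were lower in each DSS mouse than in each control mouse, as *Reg4* was. Their order over mice differed, since control mouse 2 had the most *Reg4* and the lowest control sum, at 6832 CPM. The part of enteroendocrine and epithelial levels in the fall of *Reg4* was not tested.

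Control mouse 2, which had the most *Reg4*, was also the highest control mouse in *Ang4* and *Itln1*. It was the lowest control mouse in *Reg3b*, *Reg3g*, *Dmbt1*, *Zg16* and *Slpi*, so antimicrobial and lectin genes did not share an order over the control mice. *Ang4*, a secreted ribonuclease with antimicrobial activity, stood at 4394, 16058 and 5339 CPM in control mice, and at no more than 126 CPM in any DSS mouse and 47.6 CPM in any DSS + EA mouse. *Itln1*, intelectin 1, stood at 78.5, 397.6 and 129 CPM in control mice and at no more than 6.72 CPM in the other mice. *Ang4* fell by 7.55 on the log2 scale in the DSS group (SE 1.47, adjusted p = 0.00312) and *Itln1* fell by 7.07 (SE 1.02, adjusted p = 0.000661). Unlike *Reg4*, both passed as lower also in the DSS + EA group against control, by -8.33 ± 1.53 (SE, adjusted p = 0.0168) and -6.19 ± 0.97 (SE, adjusted p = 0.00874), although this difference from *Reg4* was not tested.

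*Reg3a* was close to absent outside the DSS + EA group. It had 3, 0 and 7 counts in control mice, 7, 1 and 0 counts in DSS mice, and 47, 1397 and 2214 counts in DSS + EA mice, or 14.3, 522 and 702 CPM. *Reg3a* thus entered the fit through the DSS + EA group, so its calls in comparisons with that group are a description. All DSS + EA mice lay above all others, and mouse 1 lay 49.1-fold below mouse 3. Over all genes, the DSS + EA mice lay all above the DSS mice for 24.2% and all above the control mice for 18.0%. The log2 fold change was 9.03 ± 1.56 against the DSS group (SE, 95% interval 5.55 to 12.50, adjusted p = 0.00254) and 8.54 ± 1.52 against control (SE, 95% interval 5.16 to 11.93, adjusted p = 0.0149), and both were DEGs. The call against control was lost without control mouse 1 (adjusted p = 0.107), control mouse 2 (0.0831) or DSS + EA mouse 3 (0.0614). The difference between the DSS and control groups, -0.49 ± 2.04 (SE, adjusted p = 0.870), rests on at most 7 counts a mouse.

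The other Reg genes of the cluster had the same distribution over mice. *Reg1* had 1, 0 and 4 counts in control mice, 6, 0 and 0 in DSS mice and 136, 9954 and 7783 in DSS + EA mice. *Reg2* had 0, 2 and 0 counts in control mice, 0 in each DSS mouse and 190, 11179 and 7022 in DSS + EA mice. *Reg3d*, which had too few counts to enter the fit, was at 0 in all control and DSS mice and had 5, 261 and 281 counts in DSS + EA mice. Against the floor of 3 counts per library, the DSS + EA mean was at least 2531-fold higher than the DSS group for *Reg2* and at least 73.7-fold higher for *Reg3d*. *Reg1* passed the test with 11.74 ± 1.85 against DSS (SE, adjusted p = 0.00164) and 11.82 ± 1.87 against control (SE, adjusted p = 0.00909). Like *Reg3a*, *Reg1* entered the fit through the DSS + EA group, so these calls are a description. Over the 9 libraries the log2 CPM of *Reg3a* had r = 0.994 with *Reg1* and 0.961 with *Reg2*, and 0.764 with *Reg3b*.

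These genes moved with the genes of pancreatic acinar cells. The acinar list had 26 genes, of which 19 were tested. In the control and DSS mice 13 of these had at most 5 counts in each library, so that they entered the fit through the DSS + EA group, and the counts are given as a description: 19 of 19 passed as higher in DSS + EA mice than with DSS alone (17.2% of all genes did), and 15 passed as higher than in control (3.00% of all genes did). Its summed level without *Zg16* was 883 to 2774 CPM in control mice, 57.4 to 171 in DSS mice, and 1005, 52784 and 23548 in DSS + EA mice 1 to 3. Leaving out also *Sycn*, *Clps* and *Cela1*, which the control mice had too and which were set aside after their values were seen, it was 2.99 to 5.08 CPM in control mice, 2.82 to 8.04 in DSS mice, and 524, 48643 and 20462 in DSS + EA mice 1 to 3. On this shortened sum all DSS + EA mice, mouse 1 included, lay above all other mice. Leaving out genes that the control mice had favours that outcome, so it is a description. With only *Zg16* left out, DSS + EA mouse 1, at 1005 CPM, lay within the control range. *Prss2*, a trypsinogen and a defining acinar gene, had 0, 0 and 1 counts in control mice, 2, 1 and 0 in DSS mice and 241, 13882 and 8470 in DSS + EA mice. *Cpa1*, pancreatic carboxypeptidase, had 1 count in all control mice together, 0 in DSS mice and 46, 3263 and 1805 in DSS + EA mice. The 3 genes whose log2 CPM was most like that of *Reg3a*, of 11314 named genes compared, were the acinar genes *Pnlip* (r = 0.983), *Ctrb1* (r = 0.982) and *Try4* (r = 0.981, n = 9 libraries). Without DSS + EA mice 2 and 3, the *Reg3a* value was 4.18 against DSS (adjusted p = 0.0807) and 3.67 against control (adjusted p = 0.420). The DSS + EA group was then 1 mouse, assumed to vary like the other groups, and the lost calls say nothing of stability. The part of acinar RNA in the *Reg3a* values was not tested.

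**Figure D5:**
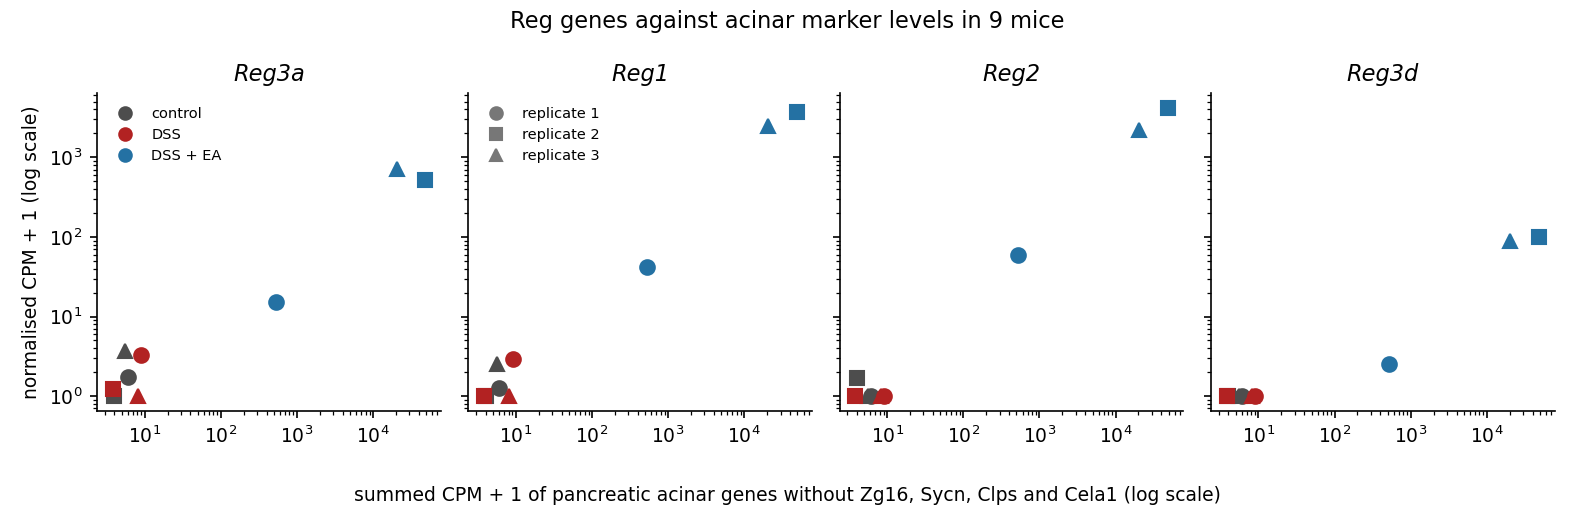
CPM + 1 of *Reg3a*, *Reg1*, *Reg2* and *Reg3d* against the summed CPM + 1 of pancreatic acinar genes without *Zg16*, *Sycn*, *Clps* and *Cela1*, both on log axes, in 9 mice coloured by group, with symbols for replicates. DSS + EA mice 2 and 3 stand apart at the upper right in each panel, and DSS + EA mouse 1, at a summed acinar level of 524 CPM, lies between them and the control and DSS mice, none of which exceeds 8.04 CPM. *Sycn*, *Clps* and *Cela1*, which the control mice had too, were set aside after their values were seen.

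*Reg3b* and *Reg3g* did not follow the acinar genes over the DSS + EA mice. DSS + EA mouse 1, with the lowest acinar level of its group, had the highest *Reg3b* and *Reg3g*, and DSS mouse 1 had 13442 CPM of *Reg3b* with 2 counts of *Prss2*. The genes most like *Reg3b* were *Creb3l3* (r = 0.967), a transcription factor of liver and intestine, *Dmbt1* (r = 0.960), a secreted mucosal scavenger protein that binds bacteria, and *Myl7* (r = 0.950). Those most like *Reg3g* were *Dmbt1* (r = 0.974), *Creb3l3* (r = 0.972) and *Slc51b* (r = 0.970), a subunit of the bile acid exporter of enterocytes. *Dmbt1* stood at 402, 284 and 488 CPM in control mice, 1166, 225 and 138 in DSS mice and 1051, 1274 and 1196 in DSS + EA mice, so that DSS mouse 1 again sat with the DSS + EA group. The genes most like *Reg4* were *Clcn3* (r = 0.974), *St3gal6* (r = 0.946) and *Sri* (r = 0.943). All these correlations are descriptions over the same 9 libraries.

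*Il22*, *Il17a* and *Il23a*, cytokines of the pathway known to induce Reg3 genes, had few counts. *Il22*, the main inducer, had 0 counts in all control mice, 0, 64 and 2 in DSS mice 1 to 3 and 6, 3 and 7 in DSS + EA mice, and was not tested. The mouse with the most *Il22*, DSS mouse 2, had 92.6 CPM of *Reg3b*, and DSS mouse 1, with 13442 CPM of *Reg3b*, had 0 counts of *Il22*. *Il17a* had at most 1 count and *Il23a* at most 2 in any mouse. Of the 10 inducing cytokines that could be tested, 9 passed as higher in the DSS group, 5 passed as lower in DSS + EA mice than with DSS alone, and 3 passed as higher than in control. The shares of all genes that did so were 21.5%, 18.3% and 3.00%. Of these 10, 6 had at most 5 counts in each control mouse and entered the fit through the mice in which they were high, so the first count is a description. *Il6*, a STAT3-activating cytokine, stood at no more than 0.38 CPM in control mice, at 29.9, 55.4 and 34.0 in DSS mice and at 1.22, 2.61 and 2.54 in DSS + EA mice. *Il1b* stood at 36.7, 151 and 270 CPM in DSS mice and 133, 27.6 and 52.7 in DSS + EA mice.

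Receptors and signal transducers of these cytokines were mostly higher in the DSS group, with 14 of 24 passing as higher and 3 as lower (median 1.48 against 0.02 over all genes). In the DSS + EA group, 3 passed as higher and 12 as lower than with DSS alone, and 2 passed as higher than in control. Over all genes, 21.5% passed as higher and 19.5% as lower in the DSS group. In the DSS + EA group, the shares of all genes were 17.2%, 18.3% and 3.00% in the order given. *Il22ra1*, the IL-22 receptor subunit of epithelial cells, had at most 6 counts in any mouse and was not tested. Its partner *Il10rb* had a log2 fold change of -0.88 ± 0.32 in the DSS group (SE, adjusted p = 0.0507). *Stat3* was higher in the DSS group by 1.94 ± 0.25 (SE, adjusted p = 0.000421) and lower in DSS + EA mice than with DSS alone by -1.52 ± 0.25 (SE, adjusted p = 0.00209). *Socs3*, a feedback inhibitor that STAT3 induces, stood at 17.5, 18.3 and 11.5 CPM in control mice, 185, 445 and 359 in DSS mice and 159, 52.3 and 109 in DSS + EA mice. It passed in all 3 comparisons, with 4.38, -1.62 and 2.76 for DSS minus control, DSS + EA minus DSS and DSS + EA minus control. *Il17ra*, the IL-17 receptor, was higher in the DSS group by 2.74 ± 0.58 (SE, adjusted p = 0.00466) and lower in DSS + EA mice than with DSS alone by -3.46 ± 0.62 (SE, adjusted p = 0.00290). *Il17rc*, its partner subunit, named here after its values were seen, took the opposite course. It stood at 34.3, 31.9 and 31.8 CPM in control mice, 1.29, 8.47 and 5.62 in DSS mice and 26.2, 18.7 and 24.4 in DSS + EA mice, with -2.62 ± 0.45 for DSS minus control (SE, adjusted p = 0.00154) and 2.12 ± 0.45 for DSS + EA minus DSS (SE, adjusted p = 0.00615).

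*Extl3*, a proposed receptor of Reg proteins, had low counts, with 28, 18 and 21 in control mice, 30, 67 and 40 in DSS mice and 24, 15 and 19 in DSS + EA mice. It passed as higher in the DSS group by 0.80 ± 0.26 (SE, adjusted p = 0.0336) and as lower in DSS + EA mice than with DSS alone by -0.95 ± 0.27 (SE, adjusted p = 0.0202). The groups did not overlap in either comparison, as was the case in these directions for 26.2% and 23.3% of all genes.

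Other antimicrobial and IL-22 response genes followed several courses. Of 31 tested, 14 passed as higher and 10 as lower in the DSS group, with a median of 0.38, where 21.5% and 19.5% of all genes passed. Against the DSS group, 8 passed as higher and 7 as lower in the DSS + EA group, where 17.2% and 18.3% of all genes did. Against control 14 passed as higher and 3 as lower, where 3.00% and 0.637% of all genes did. The calls against control were unstable, since over all genes 377 passed as higher and 88 did without control mouse 1. *Lcn2*, which withholds iron from bacteria, rose in each DSS mouse, to 538, 2393 and 4825 CPM from 2.66 to 6.90 in control mice, and stood at 112, 196 and 101 CPM in DSS + EA mice. Its log2 fold changes were 8.92 ± 0.89 for DSS minus control (SE, adjusted p = 0.000109) and -4.24 ± 0.71 for DSS + EA minus DSS (SE, adjusted p = 0.00219). DSS mouse 1, the highest of its group in *Reg3b*, was the lowest in *Lcn2*. *Saa3*, an acute phase protein, stood at 7.37 to 14.6 CPM in control mice, 7342, 13641 and 41620 in DSS mice and 748, 1272 and 601 in DSS + EA mice. *Slpi*, a secreted protease inhibitor, stood at 16.3 to 35.3, then 486, 1051 and 1773, then 292, 258 and 458 CPM in the same order. In these 3 genes DSS mouse 1 was thus the lowest DSS mouse. In all 3, every DSS + EA mouse lay below every DSS mouse, as was the case for 23.3% of all genes. Other genes of the list had the opposite order, with DSS mouse 1 the highest DSS mouse, as for *Reg3b*. In DSS mice 1 to 3, *Saa1* stood at 1671, 835 and 278 CPM and *Retnlb* at 1610, 173 and 62.1. *Zg16* stood at 1602, 968 and 272 CPM, *Lypd8* at 7279, 2583 and 1495, and *Pigr* at 496, 137 and 60.5.

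Of 18 other lectins of the gut tested, 8 passed as higher and 5 as lower with DSS, where 21.5% and 19.5% of all genes did. Of these 18, 3 had at most 5 counts in each control mouse. Against DSS alone, 4 passed as higher and 6 as lower in DSS + EA mice, where 17.2% and 18.3% of all genes did. Against control 1 passed in each direction, where 3.00% of all genes passed as higher and 0.637% as lower. *Mrc1*, the macrophage mannose receptor, rose by 2.93 ± 0.32 (SE, adjusted p = 0.000171) and *Lgals1*, galectin 1, by 1.28 ± 0.19 (SE, adjusted p = 0.000768) in the DSS group. Both were lower in DSS + EA mice than with DSS alone, by -2.03 ± 0.30 (SE, adjusted p = 0.00131) and -1.04 ± 0.19 (SE, adjusted p = 0.00311). Markers of other gut regions were also measured beside the members. Of 7 small intestinal genes tested, 1 passed as higher and 3 as lower in the DSS group, where 21.5% and 19.5% of all genes did. In DSS + EA mice 4 passed as higher than with DSS alone and 1 as higher than in control. The shares of all genes that did so were 17.2% and 3.00%. Summed over the whole list of 16 genes, their level was 1375 to 2365 CPM in control mice, 29.6 to 272 in DSS mice and 542 to 1008 in DSS + EA mice. *Fabp2* alone gave 1299, 1269 and 2241 CPM of this sum in control mice 1 to 3. *Fabp6*, also of that list, stood at no more than 13.8 CPM in control and DSS mice. It reached 77.0, 154 and 27.6 CPM in DSS + EA mice 1 to 3. *Defa24*, of the Paneth cell list, had 103 counts in DSS + EA mouse 2 and at most 4 in any other mouse. The part of small intestinal RNA in the values of the members was not tested. Of 13 colon genes, 0 passed as higher and 10 as lower in the DSS group, where 21.5% and 19.5% of all genes did. In DSS + EA mice 7 passed as higher and 0 as lower than with DSS alone, where 17.2% and 18.3% of all genes did. Against control 0 passed, where 3.00% of all genes passed as higher and 0.637% as lower.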

How the data were processed

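Colon RNA of 9 mice, 3 per group, was sequenced as full-length cDNA on an Oxford Nanopore instrument after PCR. The authors deposited raw read counts per gene, as whole numbers, on mm10 per the labels. The aligner, counting tool, annotation and use of strand are not given in the sources used here. Of 27733 lines, 14 held no counts and were skipped. The 9 libraries held 2627695 to 4235576 counts.

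Counts were fitted in R 4.3.3 with edgeR 4.0.16 (TMM, filterByExpr, the quasi-likelihood test, prior count 0.125), with group as the only term over all 9 libraries. P-values were adjusted by the Benjamini-Hochberg method over 12566 genes. The study's methods name DESeq2, which was run here as an alternative (version 1.42.0). Standard errors are the log2 fold change divided by the square root of F. Log2 CPM for correlations and spreads used a prior count of 2, and log2 ratios of counts a pseudocount of 0.5. The fit was tested on simulated data. Groups were taken from the labels, and same-numbered mice are different animals. Sequences and start sites are from RefSeq (GRCm38.p6), where all 7 Reg genes of the table had a promoter window; positions and coding sequences are from GENCODE M21. Alignments used Biopython 1.88.

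The members and the 16 gene lists were chosen with earlier results of these data known. The genes named are the members, the other Reg genes and *Extl3*, the 3 genes most correlated with each member, the genes of each list with the smallest P in DSS minus control, and a set of fixed markers and signalling genes. No test was made of whether a list stands apart. Alternatives were DESeq2, RLE factors, library totals, no filter, a mean of at least 20 counts, 2 groups only, a prior count of 2, the replicate block, scaling to epithelial markers, Reg3 counts summed, other pseudocounts and each mouse left out. Protein sequences were not used here.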

Additional observations from a re-analysis of the deposited data

How the results depend on the processing

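Of the 12 differences of the members, *Reg4* in DSS minus control and *Reg3a* in both comparisons of the DSS + EA group passed the test under each alternative that kept all mice, except that *Reg3a* did not with the Reg3 counts summed, in which the 4 Reg3 genes enter as 1 feature carried by *Reg3b*: 1.75 (adjusted p = 0.460) against DSS, 5.16 (0.235) against control and, with the sign turned, 3.41 for DSS minus control. Scaled to epithelial markers, which moves the median of all genes from 0.02 to 1.62 in DSS minus control, *Reg3a* there was 0.55, with the sign turned and at most 7 counts a mouse, *Reg3b* was 3.99 and *Reg3g* 4.08 in DSS minus control, and they were 5.38 and 5.20 in DSS + EA minus control, all 4 past the test. With only the 2 groups in the fit, *Reg3b* (5.17) and *Reg3g* (5.02) in DSS + EA minus control and *Reg4* (2.08) in DSS + EA minus DSS passed, and *Reg4* also passed without a filter (2.14); *Reg3a* could not be fitted for DSS minus control there. Without DSS + EA replicates 2 and 3 together, *Reg3a* gave 4.18 and 3.67 and no longer passed; the DSS + EA group was then 1 mouse, assumed to vary like the other groups, and such lost calls say nothing of stability. The cause of the other changes was not tested. Since *Reg3a* entered the fit through the DSS + EA group, its calls against the other groups are a description under every alternative.

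Leaving out each mouse in turn gave, for DSS minus control, -2.76 to 0.75 for *Reg3a*, -2.89 to 5.67 for *Reg3b*, -2.97 to 5.10 for *Reg3g* and -4.77 to -2.61 for *Reg4*. For DSS + EA minus DSS it gave 8.38 to 11.31, 1.19 to 8.05, 0.94 to 7.99 and 1.68 to 2.30 in the same order, and for DSS + EA minus control 7.87 to 9.81, 4.61 to 7.46, 4.51 to 6.64 and -2.68 to -0.52. *Reg3a* in DSS + EA minus control no longer passed without control replicate 1 (adjusted p = 0.107), control replicate 2 (0.0831) or DSS + EA replicate 3 (0.0614).

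The replicate numbers do not pair the mice (correlations of same-numbered libraries from -0.16 to 0.11), and the replicate block changed 0 of 12 calls, with *Reg3b* at 1.74 in DSS minus control and 4.09 in DSS + EA minus DSS. Over all genes, 377 passed as higher and 80 as lower in DSS + EA minus control, and the alternatives gave from 53 to 790 and from 1 to 359, the lowest without DSS + EA replicates 2 and 3 together and the highest with 2 groups only. With 1 mouse left out they gave 88 (without control replicate 1) to 599 (without DSS replicate 1) and 14 (without DSS + EA replicate 3) to 173 (without DSS replicate 1). In DSS + EA minus DSS, 2162 and 2295 became 505 and 302 without DSS + EA replicates 2 and 3 together, again with 1 mouse in that group. Of 1728 recomputed counts of calls in the gene lists, 231 moved by over 1.5 times and 1497 did not. Depth limited *Reg3a* outside the DSS + EA group, *Il22*, *Il22ra1* and *Reg3d*, which had too few counts for a firm value.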
